A study of Mus musculus with 5 samples.

Results

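The genes described here are the TCF/LEF transcription factors and the feedback genes of the WNT pathway in mouse embryonic stem (ES) cells. They were chosen by name (Lef1, Tcf7, Tcf7l1, Tcf7l2, Ctnnb1, Axin2, Sp5, Dkk1, Dkk4 and Nkd1), and 9 of the 10 were measured among 19938 genes. No probe set carried Tcf7 as its only gene symbol, so Tcf7 was not analysed here. Each of the other 9 had 1 such probe set, so the mean over all 5 arrays, which picks among several probe sets of a gene, left nothing to choose. RNA from ES cells carrying a Satb1 transgene behind a doxycycline-inducible (tetO) promoter was hybridised to 5 arrays. The uninduced group had 2 arrays of cells without doxycycline (DOX), and the induced group had 3 arrays, from cells kept in DOX for 24 h. The titles give the transgene to both groups, while a genotype label calls the uninduced cells control and the series title speaks of WT cells. Both groups grew in ES medium with LIF and 15% serum, and RNA was taken 48 h after passaging. The labels name irradiated feeder cells, which were reduced by letting the suspension settle for 10 min, whereas the design text of the series names LIF only. DOX-treated cells without the transgene were not analysed here, so each difference is between arrays titled with and without DOX, and whether the uninduced cells carry the transgene rests on their titles. The labels do not say whether the numbered arrays came from separate cultures or clones, so p-values here measure only how far these arrays differ, a difference that may be technical.

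WNT proteins bind Frizzled receptors and LRP co-receptors, which stops a complex built on AXIN, APC and the kinase GSK3 from marking β-catenin for destruction. β-catenin then enters the nucleus and binds the TCF/LEF factors, which switch from repressing to activating their targets. Several of those targets, among them Axin2, Dkk1, Dkk4, Nkd1 and Sp5, encode proteins that dampen the pathway again. In ES cells TCF7L1 (formerly TCF3) represses pluripotency genes, and β-catenin relieves that repression. SATB1, an AT-rich DNA binding protein of T lymphocytes, is known to interact with β-catenin in those cells.

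The upstream sequence of 3 of these genes is shown because TCF/LEF factors act through short DNA words at their targets. Sp5 and Dkk1 are feedback targets and were the only chosen genes with 2 matches to the words below. Axin2 and Nkd1, also feedback targets, had windows without a match and are not shown. Lef1 had the largest change between the groups among the 9 genes. Each run holds the 250 bases before a RefSeq transcription start (build GRCm38.p6), read 5′ to 3′ on the strand of the gene. Capitals mark matches, on either strand, to the TCF/LEF core word CTTTGAA, to its variant CTTTGAT, or to CTTTGTA or, as the fourth word, CTTTGTT. Such words, CTTTGTA and CTTTGTT among them, also hold the core recognised by SOX factors. The Sp5 run lies at chr2:70474673-70474922 (plus strand), the Dkk1 run at chr19:30549497-30549746 (minus strand) and the Lef1 run at chr3:131110047-131110296 (plus strand).
Sp5: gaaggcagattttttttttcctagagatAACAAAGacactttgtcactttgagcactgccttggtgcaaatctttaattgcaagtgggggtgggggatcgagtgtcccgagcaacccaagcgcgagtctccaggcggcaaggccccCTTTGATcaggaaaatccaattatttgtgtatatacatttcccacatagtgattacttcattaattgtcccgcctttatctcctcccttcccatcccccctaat
Dkk1: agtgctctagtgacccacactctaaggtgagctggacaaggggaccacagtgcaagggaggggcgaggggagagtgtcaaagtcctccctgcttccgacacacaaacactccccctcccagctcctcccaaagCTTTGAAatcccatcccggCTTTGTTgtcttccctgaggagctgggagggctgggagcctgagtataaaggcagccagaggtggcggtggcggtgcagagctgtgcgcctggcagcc
Lef1: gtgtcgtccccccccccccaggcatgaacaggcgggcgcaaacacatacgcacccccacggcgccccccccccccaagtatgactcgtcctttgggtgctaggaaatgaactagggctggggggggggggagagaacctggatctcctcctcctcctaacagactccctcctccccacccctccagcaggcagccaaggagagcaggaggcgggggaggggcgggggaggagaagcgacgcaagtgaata

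Sp5 had a match beginning 222 bases before the start (AACAAAG, the reverse complement of CTTTGTT) and another beginning 104 bases before it (CTTTGAT). Dkk1 had CTTTGAA at 117 and CTTTGTT at 98 bases before its start. The Lef1 run held no match. RefSeq windows were found for 9 of the 10 chosen genes, Dkk4 being the exception, with 15 start sites among them. Of these 15 windows 4 held a match, while 14.8% of all 32851 windows of this length held at least 1 and 1.43% held 2 or more. Lef1 and Tcf7l2 had a match at an alternative start site, 1 each, and the windows of Tcf7, Tcf7l1, Ctnnb1, Axin2 and Nkd1 had none. A match describes these letters only.

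Satb1 itself was brighter on every induced array. Its log2 level stood at 4.95 and 5.34 without DOX and at 8.61, 8.79 and 8.68 with DOX, an 11.7-fold difference that did not pass the test over all genes (adjusted p = 0.229, limma). It passed with the spread taken from the 1800 genes with 5 distinct values (adjusted p = 0.0038), among untied genes (0.00053) and without uninduced array 1 or 2 (0.0042 and 0.0034), and not in the other 9 of 13 alternatives (limma). Array medians over all genes lay between 5.05 and 5.07. Of 10 ES cell genes, 3 had a higher and 7 a lower mean with DOX, and none passed. Those named for their level were Tdgf1, Dppa5a, Pou5f1 (9.86 to 9.96) and Sox2 (9.88 to 9.97), while Zfp42, an ES cell marker chosen for mention after its values were seen, lay at 6.23 to 6.42. Tdgf1, which encodes the Nodal co-receptor Cripto, was lower on every induced array, at 11.23 and 11.29 and then 11.07, 11.09 and 11.01 (-0.21 ± 0.035, standard error; adjusted p = 0.770, limma), a larger change than in any of the 9 WNT genes. The mean log2 level of 25 feeder fibroblast genes was 5.299 and 5.305 without DOX. With DOX it was 5.294, 5.321 and 5.326, so the groups overlapped. Of these genes 14 had a higher and 9 a lower mean, and none passed. Only in Lox, chosen for mention after its values were seen, did the groups not overlap. Lox was at 4.81 and 4.76 without DOX and at 4.59 on every induced array (-0.20 ± 0.018, standard error). The mean of 5 primitive streak genes ranged from 4.758 to 4.809 without DOX and from 4.715 to 4.849 with DOX. The mean of 6 neuroectoderm genes ranged from 4.32 to 4.37 and from 4.28 to 4.45. Levels of different probe sets depend on their probes and are not compared between genes. In these bulk samples, fewer cells of a type and less RNA per cell cannot be told apart.

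None of the 9 genes passed the test over all genes. Satb1 did not pass it either, so a missing call does not show that a gene was unchanged. That test was limma with Benjamini-Hochberg adjustment and a threshold of 0.05, and it called 2 of 19938 genes higher (0.01%) and 1 lower (0.00502%). Dkk4 was higher and Lef1 lower when the unadjusted p was held to 0.05, as were 0.481% and 1.07% of all genes. Means were higher in induced cells for Tcf7l2, Sp5, Dkk4 and Nkd1 and lower for Lef1, Tcf7l1 and Ctnnb1. Axin2 and Dkk1 did not vary over the 5 arrays. The 9 genes and all genes had the same median log2 change, 0. Over all genes 39.6% had a higher mean, 45.3% a lower mean and 15.1% the same value throughout. Earlier results of these data were known when the 9 genes were chosen, and Lef1 and Dkk4 were already among the genes of small p, so their place in this set is not support for a change.

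Lef1 and Dkk4 were the genes whose groups did not overlap. All induced arrays lay below both uninduced arrays in Lef1, a pattern held by 3.08% of all genes, and above them in Dkk4, a pattern held by 1.65%. Among the other 7 genes the groups overlapped or shared a value.

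**Figure D1:**
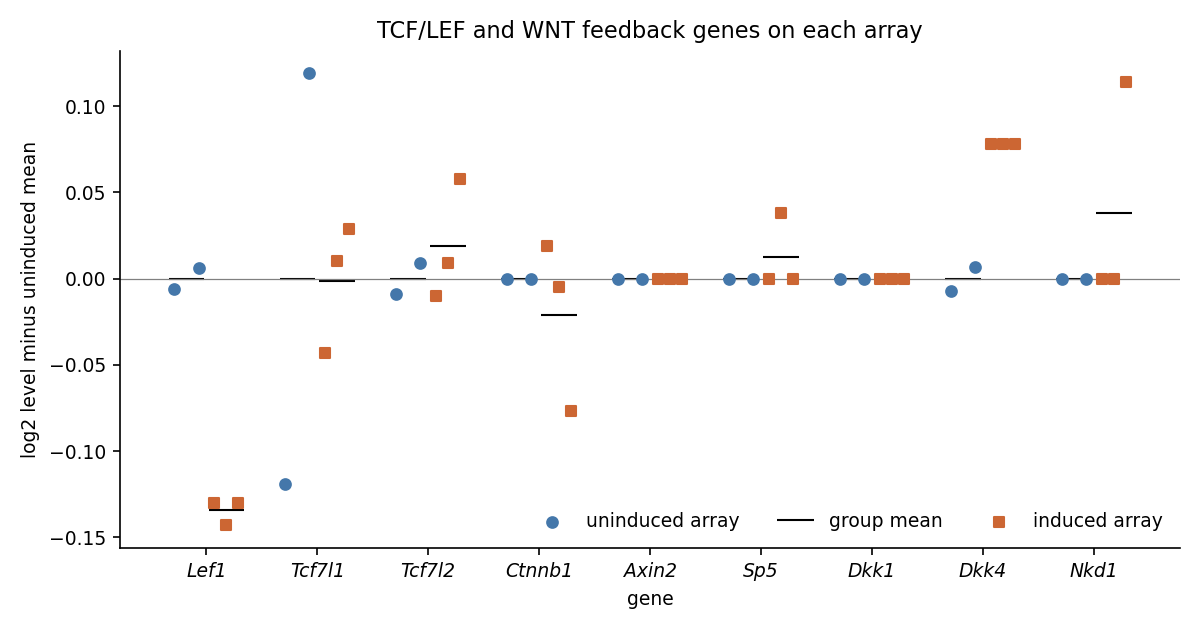
Log2 level of each gene on each array (vertical axis, log2 units relative to the mean of the 2 uninduced arrays) for the 9 measured genes (horizontal axis). Circles are uninduced arrays, squares induced arrays and black lines group means. Lef1 squares lie below and Dkk4 squares above their circles, whereas Tcf7l1 has its 2 circles at the extremes and Axin2 and Dkk1 lie at 0 throughout.

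Among the DNA-binding factors, LEF1 is the family member usually linked to activation and is itself a WNT target in many tissues. The log2 level of Lef1 was 6.03 and 6.04 without DOX and at 5.91, 5.89 and 5.91 with DOX. Arrays of a group lay within 0.013 of each other, while the gap between the groups was 0.124. The group means were 6.04 ± 0.009 (SD, n = 2) and 5.90 ± 0.007 (SD, n = 3). The change was -0.13 ± 0.007 (standard error), or 1.1-fold lower, and did not pass over all genes (adjusted p = 0.272, limma). Induced arrays 1 and 3 held exactly the same value. By the size of its change Lef1 was 1544th of 19938 genes, and 7.74% of genes changed more. Its p-value was the 8th smallest.

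The genes whose profile over the 5 arrays was most like that of Lef1 were Birc5, which encodes the mitotic survival protein survivin, Fthl17f and Leng8. After centring each gene on its mean, Birc5 differed from Lef1 by a root mean square of 0.0088 on the log2 scale, Fthl17f by 0.0117 and Leng8 by 0.0119. Their log2 changes were -0.13 each. This likeness is a description over 5 arrays of 2 groups.

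TCF7L1, the repressor form that predominates in ES cells, was unlike Lef1 in its spread. The log2 level of Tcf7l1 was 6.63 and 6.87 without DOX and at 6.70, 6.76 and 6.78 with DOX, so the lowest and the highest of the 5 values were both uninduced. The uninduced arrays were 0.238 apart and the induced arrays 0.072. The change was -0.001 ± 0.087 (standard error). Of the 9 genes, only Tcf7l1 had 5 distinct values. Without uninduced array 1 every induced array lay below the remaining one, at a change of -0.12, and without uninduced array 2 every induced array lay above it, at 0.12.

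TCF7L2, a factor with activating and repressing isoforms, had log2 levels of 6.08 and 6.10 without DOX and of 6.08, 6.10 and 6.15 with DOX. Uninduced array 2 and induced array 2 held the same value, and induced array 3 was the highest of the 5. The change in Tcf7l2 was 0.02 ± 0.025 (standard error), and without induced array 3 it was -0.001.

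Ctnnb1 encodes β-catenin, the coactivator that binds all TCF/LEF factors. Its log2 level was 9.21 on both uninduced arrays, exactly tied, and 9.23, 9.20 and 9.13 on the induced arrays. Induced array 1 lay above the uninduced value and arrays 2 and 3 below it. The change in Ctnnb1 was -0.02 ± 0.035 (standard error), and without induced array 3 it was 0.007. Without induced array 1 it was -0.04, and both remaining induced arrays lay below the uninduced value. The array measures RNA, so the stability of the β-catenin protein, through which WNT signals act, was not measured.

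Of the secreted feedback inhibitors, Dkk1 and Dkk4 both encode Dickkopf proteins, which bind the LRP co-receptors. The log2 level of Dkk4 was 4.94 and 4.96 without DOX and 5.03 on all 3 arrays with DOX. The induced values were exactly equal, and the gap between the groups was 0.071. The change was 0.08 ± 0.005 (standard error), or 1.06-fold higher, and did not pass over all genes (adjusted p = 0.390, limma). In size, 21.2% of genes changed more than Dkk4, which was 4230th, while its p-value was the 14th smallest. Dkk1 stood at 4.87 on all 5 arrays.

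Among the inhibitors inside the cell, AXIN2 is a scaffold of the destruction complex and its gene is widely used as a readout of WNT signalling. Axin2 stood at 5.20 on all 5 arrays. NKD1 binds Dishevelled and dampens the signal. Nkd1 stood at 4.87 on 4 arrays and at 4.98 on induced array 3, which alone made its change of 0.04 ± 0.046 (standard error). SP5 is a zinc finger protein that restrains WNT target genes. Sp5 stood at 4.83 on 4 arrays and at 4.87 on induced array 2, a change of 0.01 ± 0.016 (standard error). Without the array that stood apart, the change in each of these genes was 0.

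**Figure D2:**
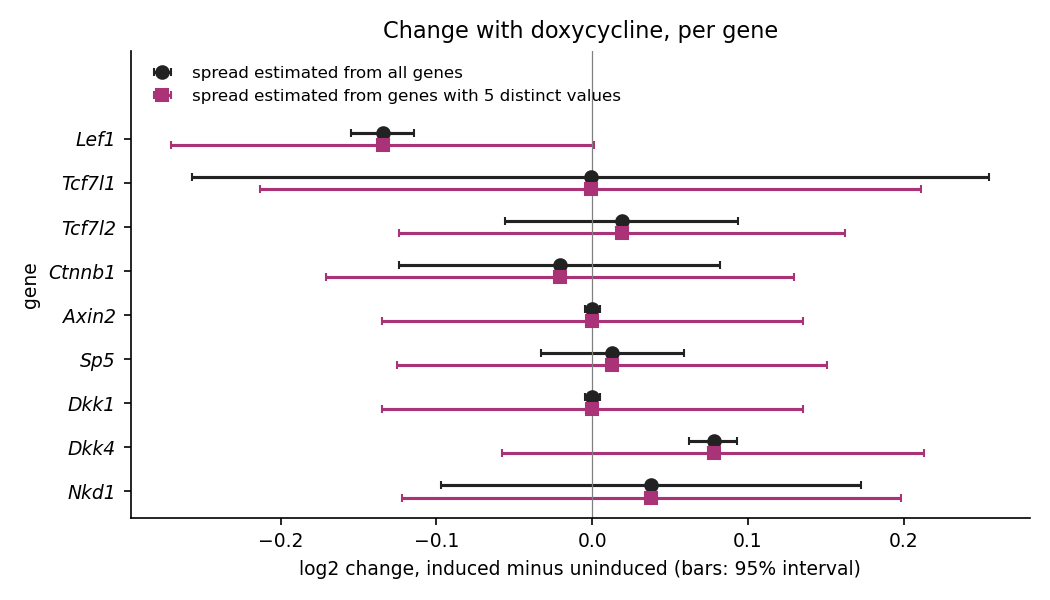
Log2 change of each gene, induced minus uninduced (horizontal axis), for the 9 genes (vertical axis), with 95% intervals. Circles use limma's spread from all genes and squares the spread from the 1800 genes with 5 distinct values, under which all 9 intervals contain 0.

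The flat values of Axin2, Dkk1 and Nkd1 and the usual value of Sp5 were not particular to their probe sets. The value of Dkk1 was held on the same array by 87 to 119 other probe sets of the 35557 in the table, and 32 other probe sets matched it exactly on all 5 arrays. Dkk1 and Nkd1 held the same number on 4 arrays. The value of Axin2 was shared by 59 to 88 other probe sets on each array, and 23 matched it on all 5. The usual value of Sp5 was shared by 75 to 101 others, and its single higher value by none. Such sharing on all 5 arrays occurred in 3 of the 9 genes (Axin2, Dkk1 and Nkd1) and in 13.9% of all genes. It was more frequent among genes at or below the median level of 5.06 (18.6%) than among those above it (9.25%).

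The other genes had values of their own on most arrays. Tcf7l1, Ctnnb1 and Dkk4 shared no value with another probe set on any array, as did 32.6% of all genes. Lef1 shared its value with 14 others on uninduced array 1, and Tcf7l2 with 34 others on that array. What produced these shared values was not tested.

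**Figure D3:**
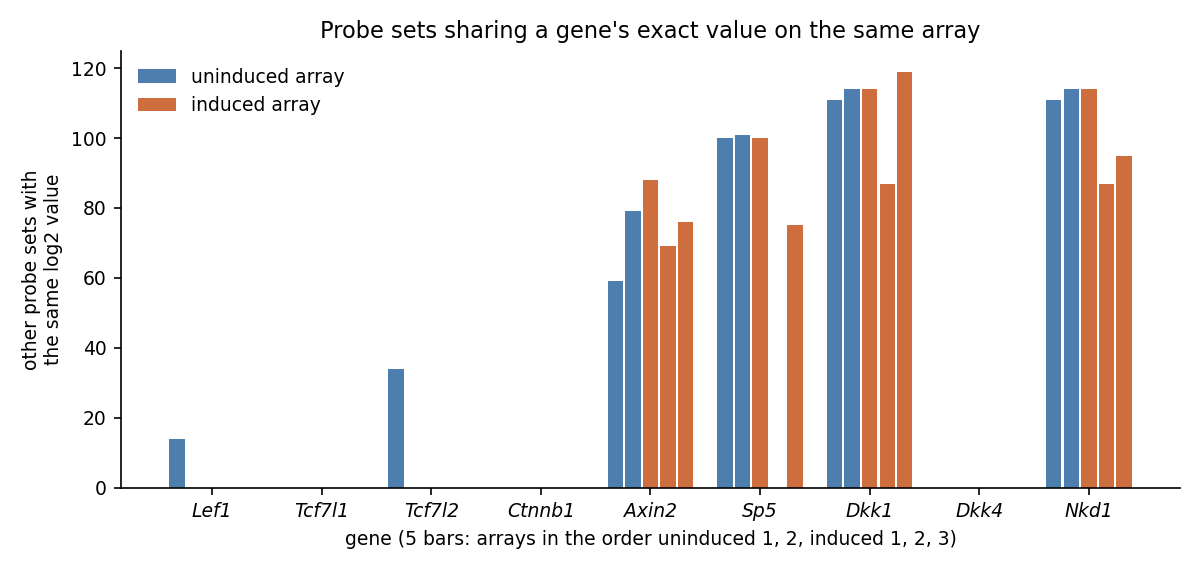
Number of other probe sets holding exactly the same log2 value on the same array (vertical axis) for each gene and array (horizontal axis, 5 bars per gene). Bars for Axin2, Dkk1 and Nkd1 are present on all 5 arrays, and Sp5 lacks a bar on induced array 2, where its value was its own.

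Ties between arrays were also common. The induced arrays held a single value in 3 of the 9 genes and in 28.9% of all genes, and the uninduced arrays in 5 of the 9 and in 43.0% of all genes. Ties shrink the spread that limma estimates. The 1800 genes with 5 distinct values were picked for lacking ties, so a spread taken from them may be too large for other genes. The own spread of each gene entered that fit as well. With the spread taken from the 1800 genes with 5 distinct values, the 95% interval of the log2 change ran from -0.27 to 0.0011 in Lef1 and from -0.06 to 0.21 in Dkk4 (adjusted p = 1 for both, limma). For Axin2 and Dkk1, whose values did not vary, that lack of spread narrowed the interval, which ran from -0.135 to 0.135. A change of up to 1.1-fold lay within it. Whether their probe sets respond to a larger change was not tested. The widest interval was that of Tcf7l1, from -0.21 to 0.21. Adjusted p-values fell under 0.05 for Lef1 (0.016 and 0.020) and Dkk4 (0.00039 and 0.00030) in the fits without uninduced array 1 and without uninduced array 2. Those fits had a lone uninduced array, which was given the variability of the induced arrays, and called 1980 and 1979 genes.

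The remainder of the WNT pathway gave no call either. Of 98 measured genes of 8 lists, 46 had a higher mean, 38 a lower mean and 14 the same value on all arrays, and the smallest adjusted p was 0.770 (limma). The groups did not overlap in 3 genes that were higher (3.06%) and 3 that were lower (3.06%), beside 1.65% and 3.08% of all genes. The median change of these 98 genes was 0.

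Upstream of the receptors, 9 of 19 WNT ligand genes had a higher and 9 a lower mean, and the median log2 change was 0. Wnt4 was at 6.12 and 6.19 without DOX and at 6.06, 6.12 and 6.07 with DOX, a change of -0.07 ± 0.033 (standard error), with induced array 2 just below uninduced array 1. Of 6 genes of ligand release and potentiation, 3 had a higher and 2 a lower mean, with a median of 0.05. Porcn, the acyltransferase that WNT proteins need for secretion, was at 5.91 and 5.99, and then at 5.85, 5.87 and 5.83, so that every induced array was lower (-0.10 ± 0.030, standard error; adjusted p = 0.770, limma).

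Among 18 receptors and co-receptors, 10 had a higher and 5 a lower mean, with a median of 0.0082. Fzd7, a Frizzled receptor gene, had the largest change of this list. Its level was at 7.25 and 7.34 without DOX and at 7.51, 7.45 and 7.50 with DOX, which all lay above. The change in Fzd7 was 0.19 ± 0.039 (standard error; adjusted p = 0.770, limma). Of 12 genes of Dishevelled and the destruction complex, 10 had a higher and 2 a lower mean, with a median of 0.03. Apc2 stood at 4.51 and 4.39, and then at 4.61, 4.55 and 4.55, a change of 0.12 ± 0.047 (standard error).

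In the nucleus, 3 of 12 cofactor and corepressor genes had a higher and 8 a lower mean, with a median of -0.03. The largest change was that of Bcl9, which links β-catenin to Pygopus, at -0.13 ± 0.101 (standard error), with overlapping groups. Of 18 other inhibitors of the pathway, 10 had a higher and 4 a lower mean, with a median of 0.0080. Sost, which encodes the LRP antagonist sclerostin, was at 5.24 and 5.39 without DOX and at 5.43, 5.43 and 5.51 with DOX (0.15 ± 0.061, standard error).

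Among 9 other WNT response genes, 1 had a higher and 5 a lower mean, with a median of -0.0077, and brachyury was not among those measured. Ccnd1, the cyclin D1 gene, was at 8.46 and 8.40 without DOX and at 8.28, 8.32 and 8.20 with DOX, all of them lower. The change in Ccnd1 was -0.17 ± 0.045 (standard error), or 1.12-fold lower, and did not pass (adjusted p = 0.770, limma). Of 4 pluripotency genes repressed by TCF7L1, Nanog, Klf2 and Tfcp2l1 had a lower mean and Esrrb the same value throughout, with a median of -0.03. The largest change of these was that of Nanog, at -0.06 ± 0.036 (standard error).

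**Figure D4:**
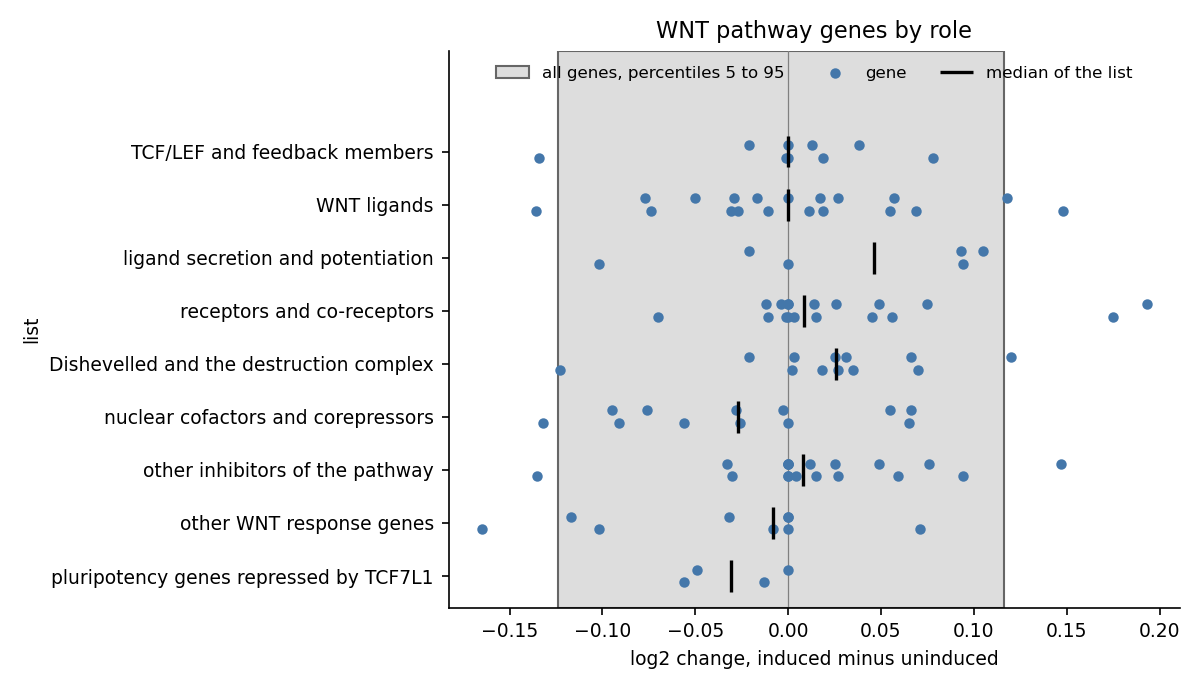
Log2 change of each measured WNT pathway gene, induced minus uninduced (horizontal axis), by role (vertical axis), with the median of each list as a black bar. The grey band spans percentiles 5 to 95 of all 19938 genes, from -0.124 to 0.116, and holds most points. The rightmost point is Fzd7 at 0.19.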

How the data were processed

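RNA was profiled on 5 arrays, and the authors deposited log2 values for 35557 probe sets, summarised with RMA per the submitters' processing notes. Its version, the software and the build are not stated in the labels. The log2 scale was read from the deposited values (0.79 to 13.1). Of these probe sets, 21789 had 1 gene symbol in the array's annotation, 1621 had several and 12147 had none. By gene identifier 21698 matched the GRCm38.p6 gene table. The probe set of highest mean stood for a gene, which gave 19938 genes, and no filter on low values was used.

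Groups came from the sample titles. The test was limma 3.58.1 (functions lmFit and eBayes, R 4.3.3) with Benjamini-Hochberg adjustment. The fit was also run on simulated data with a common spread for all genes and no ties. Only 9.03% of the real genes had 5 distinct values, so that run cannot show how the fit handles ties. An exact permutation test of 2 against 3 arrays cannot reach 0.05 and was not used. Zero change was taken as under 1e-09 and ties as exact equality. The genes, lists and alternatives were chosen with earlier results of these data known. Named genes were the 10 chosen genes and Satb1. From each pathway list came up to 4 genes without overlap of the groups, else the largest change. From the marker lists came up to 4 of the highest level, and 3 genes were named for likeness to Lef1. Alternatives were the mean of probe sets, centred arrays, quantile normalization, other estimates of spread, genes above the median level, untied genes, the title number as a block, a threshold of 0.01 and each array left out. Same-numbered arrays were not treated as pairs, since the labels do not explain the number. The number of arrays limits the precision.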

Additional observations from a re-analysis of the deposited data

How the results depend on the processing

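Lef1 stayed lower and Dkk4 higher under all alternatives run for them, at -0.141 to -0.121 and 0.071 to 0.085. Each had 1 probe set, and other estimates of spread or choices of genes fitted leave a change as it is. Those alternatives could therefore not alter the direction. Neither gene entered the fit of untied genes, and Dkk4 did not enter that of genes above the median level. Their groups did not overlap with centred arrays or quantile normalization. Leaving out an array cannot make groups overlap, so those fits do not bear on this. The count of the 9 genes called was 0 in every alternative that kept both uninduced arrays. Fits with a lone uninduced array are not counted here. Of the 9 genes, only Tcf7l1 and Tcf7l2 entered the fit of untied genes. Sp5, Dkk1, Dkk4 and Nkd1 did not enter that of genes above the median level. The small changes of Tcf7l1, Tcf7l2 and Ctnnb1 turned sign. Tcf7l1 was at 0.018 with quantile normalization and between -0.12 and 0.118 with single arrays left out, Tcf7l2 at -0.001 with the replicate block and from -0.001 to 0.033 with arrays left out, and Ctnnb1 at 0.007 and from -0.041 to 0.007 in the same settings. Against 2 higher and 1 lower calls over all genes, both counts were 0 with centred arrays, quantile normalization, the replicate block and genes above the median level. The spread from genes with 5 distinct values gave 1 (Satb1) and 0, untied genes gave 1 higher, and a threshold of 0.01 gave 0 higher. Leaving out arrays singly, these counts spanned 0 to 1051 and 0 to 1097. List medians spanned these ranges over the same fits: the 9 genes from 0 to 0.0193, ligands from -0.0036 to 0.0076, ligand release from 0 to 0.0468, receptors from 0 to 0.0214, the destruction complex from 0.0156 to 0.0285, nuclear cofactors from -0.0389 to -0.0011 and TCF7L1 targets from -0.0381 to -0.0075. With quantile normalization ligands were at -0.0053, receptors at 0.0255, the destruction complex at 0.0372 and TCF7L1 targets at -0.0074. The cause was not tested. Deviations of same-numbered arrays from their group means correlated at -0.0063 and 0.0063 over genes. The deviations of the 2 uninduced arrays mirror each other, so these values are not separate checks. Pairing was not shown, and the replicate block changed no call among the 9 genes.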
